A study of Mus musculus with 12 samples.

Results

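The Ms4a genes (membrane-spanning 4-domains, subfamily A) encode small tetraspan membrane proteins that associate with immune receptors and signalling partners. Best known are Ms4a1, which encodes the B cell antigen CD20, and Ms4a2, the beta chain of the high-affinity IgE receptor of mast cells. In macrophages, MS4A4A associates with the beta-glucan receptor Dectin-1 and is linked to levels of soluble TREM2 in human, Ms4a6d is described as a partner of VSIG4 that restrains the NLRP3 inflammasome, and Ms4a7 is used as a marker of mature macrophages. Described here are 6 members, Ms4a4a, Ms4a4c, Ms4a6b, Ms4a6c, Ms4a6d and Ms4a7, of 19 Ms4a genes and 47937 genes in the count table. They were found by symbol after matching gene identifiers to the mouse annotation, and all 6 were among the 11760 genes that passed a filter on low counts. The family was selected on values of these same libraries, because Ms4a6c lay higher with DGAT1i in resting and lower with DGAT1i in activated macrophages. All DGAT1i values of the members are therefore given as a description, with no test.

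RNA was sequenced from bone marrow-derived macrophages of C57BL/6 mice, grown for a week in CSF-1 at 20 ng/ml, in 4 groups of 3 libraries. M0 macrophages were left resting, and the IFNγ + LPS group received 50 ng/ml IFNγ with 20 ng/ml LPS for 18 h, a treatment that drives inflammatory (M1) activation. The other groups received the same with T863 at 50 µM, an inhibitor of DGAT1 (DGAT1i), the enzyme that catalyses the last step of triacylglycerol synthesis, on top of either state. All groups shared the strain, the wild-type genotype as far as the labels state, and the CSF-1 culture. The mice were 6 to 8 weeks old. The labels gave no sex and no time for M0, which was kept in medium with CSF-1 alone, and did not say whether libraries came from separate mice or cultures, so errors measure the spread between these libraries. For 2 of the 3 libraries of M0 with DGAT1i, the description gave another compound number than the source name, which gave T863 for all 3. Library totals were 4996014 to 6621671 reads with a median of 6099313.5. All 7 macrophage markers had reads in every group. Their summed level was 12944 to 14197 CPM (counts per 1000000 reads, scaled by trimmed mean of M values, TMM) in M0, 15951 to 17985 once DGAT1i was added, 8225 to 8876 in IFNγ + LPS, and 7818 to 8775 with both treatments. Markers of B cells, T and NK cells, mast cells and basophils, and fibroblasts summed to at most 2.66 CPM in any library.

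The members lie in the Ms4a cluster on chromosome 19, where the 19 Ms4a genes span 678.6 kb from 10962293 to 11640851 (GRCm38, GENCODE M21). In order along the chromosome these were Ms4a7 (ENSMUSG00000024672.11, chr19:11321039-11336146, reverse strand), Ms4a4a (ENSMUSG00000101389.1, chr19:11375523-11392790, forward), Ms4a4c (ENSMUSG00000024675.19, chr19:11404770-11427246, forward), Ms4a6c (ENSMUSG00000079419.4, chr19:11469366-11482192, forward), Ms4a6b (ENSMUSG00000024677.13, chr19:11516512-11531256, forward) and Ms4a6d (ENSMUSG00000024679.10, chr19:11586604-11604849, reverse). The 3 Ms4a6 genes were alike in sequence. The longest coding transcripts of Ms4a6b and Ms4a6c were 86.1% identical over 1234 aligned bases, those of Ms4a6b and Ms4a6d 82.5% over 933, and those of Ms4a6c and Ms4a6d 79.4% over 929. Reads could be split between such copies only where the sequence is shared exactly. Of the 50-base words of each transcript, 11.3% for Ms4a6c, 8.48% for Ms4a4c, 5.89% for Ms4a6b and 2.92% for Ms4a6d also occurred on the same strand in another gene, and none did for Ms4a4a and Ms4a7. The antisense gene BE692007 overlaps 1088 exon bases of Ms4a6c. How the counting treated strand is not given in the sources used here, so reads of this pair cannot be told apart with certainty. BE692007 held 7 reads in resting macrophages, 7 when DGAT1i was added to them, 53 in activated macrophages and 38 under both treatments, against 1282, 2088, 8713 and 5049 for Ms4a6c.

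Interferons switch on genes through 2 kinds of promoter element. IRF factors, alone or in complexes, bind the interferon-stimulated response element (ISRE), and the gamma-activated sequence (GAS) is the element named for the response to IFNγ. The letters GAAANNGAA, as the core of an ISRE, and TTCNNNGAA, as a GAS, were searched on both strands in the 250 bases upstream of RefSeq start sites (GRCm38.p6). The motifs may overlap but cannot match the same bases, and 7.13% of 32851 mouse promoters held the first, 7.02% the second and 0.752% both. Of the members, 5 matched an entry, Ms4a7 with 2 start sites, and Ms4a6d matched none. The windows below are shown because Ms4a6b and Ms4a6c share the match, Ms4a4c had the largest activation response without it, and Ms4a7 had it without a rise. Bases that the annotation places in an exon of the gene were left off, and capitals mark a match to GAAANNGAA or its reverse complement.
Ms4a6b (chr19:11518309-11518452, forward strand): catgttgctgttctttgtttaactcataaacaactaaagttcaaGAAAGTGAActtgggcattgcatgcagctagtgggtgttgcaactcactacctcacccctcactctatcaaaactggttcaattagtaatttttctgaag
Ms4a6c (chr19:11469118-11469365, forward strand): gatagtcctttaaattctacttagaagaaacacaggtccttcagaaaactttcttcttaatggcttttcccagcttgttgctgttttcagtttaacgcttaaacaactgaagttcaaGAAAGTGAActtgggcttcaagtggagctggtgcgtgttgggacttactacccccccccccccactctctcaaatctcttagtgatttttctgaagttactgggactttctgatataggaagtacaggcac
Ms4a4c (chr19:11407411-11407660, forward strand): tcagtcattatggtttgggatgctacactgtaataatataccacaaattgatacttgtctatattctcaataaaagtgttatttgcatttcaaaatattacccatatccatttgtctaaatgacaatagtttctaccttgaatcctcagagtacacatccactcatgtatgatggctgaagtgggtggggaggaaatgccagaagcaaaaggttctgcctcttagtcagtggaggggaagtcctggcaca
Ms4a7 (chr19:11336147-11336396, reverse strand): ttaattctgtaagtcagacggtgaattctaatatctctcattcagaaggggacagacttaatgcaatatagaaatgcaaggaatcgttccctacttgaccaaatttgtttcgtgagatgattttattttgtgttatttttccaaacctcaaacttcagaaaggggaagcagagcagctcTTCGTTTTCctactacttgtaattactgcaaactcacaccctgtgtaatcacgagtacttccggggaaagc
Ms4a6b and Ms4a6c each held GAAAGTGAA, on the forward strand, 198 and 125 bases upstream of the start. It sat inside a run of 24 identical bases, and with the matches aligned, 100 of the 144 Ms4a6b bases shown were identical to Ms4a6c without gaps. The longest run shared by the whole windows, of 48 bases nearer the start, held no match. Ms4a7 held GAAAACGAA on its opposite strand 63 bases upstream of the start shown and GAAAAGGAA 140 bases upstream of its other start. The windows of Ms4a4a and Ms4a4c held no match, and the GAS letters occurred in no member's window. A match describes letters only.

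Activation was compared between IFNγ + LPS and M0. This comparison shares its libraries with those that chose Ms4a6c, but was not itself the basis of the choice. Of the 4 members with a level above the filter in every group, Ms4a6b, Ms4a6c and Ms4a6d were higher in IFNγ + LPS by the quasi-likelihood test of edgeR at a Benjamini-Hochberg adjusted p of 0.05, 0 were lower, and Ms4a7 did not pass. Ms4a4a and Ms4a4c passed the filter through their level in the activated groups, which fixes the direction, so their values are given with no test. Over all genes tested, 37.1% were higher, 36.2% lower and 73.3% changed in either direction. The log2 fold change was 3.91 for Ms4a6b, 3.23 for Ms4a6c, 3.17 for Ms4a6d and 0.10 for Ms4a7, beside a median of 0.01 over all genes. The median over all 6 members was 3.57, but it includes Ms4a4a and Ms4a4c, so nothing is read from it.

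Ms4a4c, a gene of mouse myeloid and lymphoid cells, went from near 0 to among the higher levels of the family. In M0 it had 8, 0 and 2 reads, or 1.16, 0 and 0.278 CPM, and in IFNγ + LPS it had 373, 416 and 421 CPM. The groups did not overlap, and the log2 fold change was 9.70 (SE 0.17). Without M0 replicate 1, which held 8 of its 10 reads in M0, it was 11.33, and without M0 replicate 2 it was 9.11. Ms4a4a, the Dectin-1 partner, differed in the same direction at a far lower level. It had 0, 2 and 2 reads in M0 and 23, 26 and 29 in IFNγ + LPS, a log2 fold change of 4.60 (SE 0.54), and of 4.10 to 4.97 with each library left out in turn. With so few reads in M0, the folds of both genes are loosely fixed, Ms4a4c beyond its standard error.

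The 3 Ms4a6 genes were present in M0 and rose further. Ms4a6b was at 21.9, 18.6 and 26.7 CPM in M0 and at 347, 326 and 339 CPM in IFNγ + LPS. Its mean rose from 22.4 ± 4.07 to 337 ± 10.2 CPM (SD, n = 3), with an edgeR log2 fold change of 3.91 (SE 0.08, adjusted p = 3.20e-40). Ms4a6c was at 59.0, 55.4 and 64.0 CPM in M0 and at 583, 567 and 523 CPM in IFNγ + LPS. Every activated library stood far above every resting one, and the mean rose 9.38-fold (log2 fold change 3.23, SE 0.06, adjusted p = 3.45e-45). Ms4a6d, the VSIG4 partner, was at 99.5, 101 and 110 CPM in M0 and at 950, 949 and 902 CPM in IFNγ + LPS. Its 9.03-fold rise (log2 fold change 3.17, SE 0.06, adjusted p = 3.59e-46) was close to that of Ms4a6c.

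Ms4a7 was the member already high in resting macrophages. It was at 237, 217 and 245 CPM in M0 and at 273, 240 and 235 CPM in IFNγ + LPS, and these groups overlapped. The log2 fold change was 0.10 (SE 0.06, adjusted p = 0.166 by edgeR), but −0.37 (adjusted p = 8.37e-07) when libraries were scaled by their totals alone, a scaling that moved the median of all genes to −0.46. The neutrophil markers, with 6 of 8 present and Ly6g and Retnlg at 0 reads, summed to 36.5 to 45.0 CPM in M0 and 16.8 to 27.3 in IFNγ + LPS, and the dendritic cell markers to 0.133 to 0.835 and 5.62 to 7.16 CPM. Of the latter, Xcr1 carried the change with 1 and 86 reads, whereas Cd209a and Siglech had 0 reads in IFNγ + LPS. Of the 7 macrophage markers 3 rose and 4 fell. The part of these cells in the members' values was not tested. In bulk RNA, fewer cells of a type and less RNA per cell cannot be told apart.

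**Figure D1:**
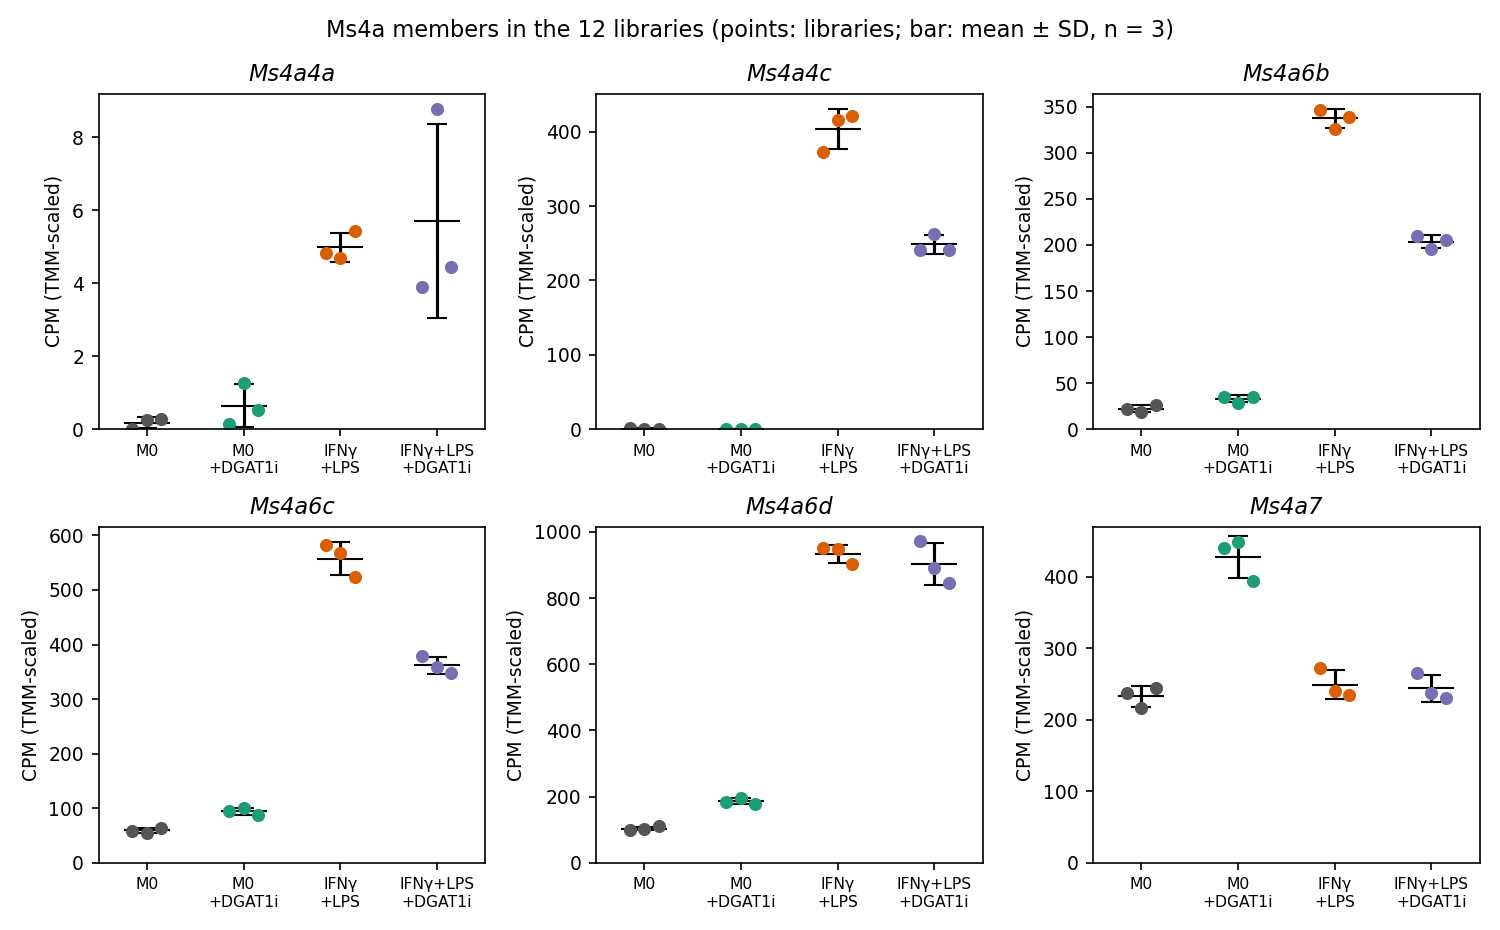
Level of each member in the 12 libraries, as TMM-scaled CPM on a linear axis from 0 with a scale of its own per gene; points are libraries, and bars give the mean ± SD of 3. Ms4a7 was highest in M0 with DGAT1i (428 ± 30.0 CPM), and the other 5 members were higher in both IFNγ + LPS groups than in both M0 groups.

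The effect of DGAT1i in resting macrophages was described from M0 with DGAT1i against M0. In M0, 4 members were higher with DGAT1i without overlap between the groups, 0 were lower, and Ms4a4a and Ms4a4c overlapped. Over all genes, 17.9% were higher without overlap and 24.4% passed the test in either direction; since the selection used this contrast, nothing is read from these shares. The members' median log2 fold change was 0.76, beside 0.00 over all genes. Ms4a7 was the member with the highest fold among the 4, at 441, 449 and 394 CPM with DGAT1i against 237, 217 and 245 without, a log2 fold change of 0.88 (SE 0.06). Ms4a6d followed closely, at 185, 195 and 179 CPM against 99.5, 101 and 110, a log2 fold change of 0.85 (SE 0.06). For both genes, the lowest library with DGAT1i stood well clear of the highest without.

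Ms4a6c was at 94.2, 101 and 87.9 CPM in M0 with DGAT1i against 59.0, 55.4 and 64.0 in M0, a log2 fold change of 0.67 (SE 0.07) and a 1.59-fold higher mean. Ms4a6b was at 35.3, 28.8 and 35.2 CPM against 21.9, 18.6 and 26.7, a log2 fold change of 0.57 (SE 0.10). The Ms4a6b groups were separated by 1 narrow gap only, between 26.7 and 28.8 CPM. Ms4a4a had 1, 9 and 4 reads with DGAT1i (log2 fold change 1.67, SE 0.83) and Ms4a4c had 4, 6 and 2 (0.22, SE 0.70), and a response of either was not detectable at this depth. Without M0 replicate 1 the Ms4a4c value became 1.84, and without replicate 2 of M0 with DGAT1i, which held 9 of 14 reads, the Ms4a4a value became 0.77. Of the 7 macrophage markers 3 rose with DGAT1i in M0, 1 fell and 3 did not pass (median 0.16), and the higher sum given above was carried mostly by Lyz2. The neutrophil markers summed to 36.5 to 45.0 CPM in M0 and 28.8 to 36.3 with DGAT1i, with Ly6g and Retnlg at 0 reads, and the B cell markers to 1.89 to 2.66 and 0.531 to 1.85 CPM, nearly all from Cd79b. The part of these cells in the members' values was not tested.

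The effect of DGAT1i in activated macrophages was described from IFNγ + LPS with DGAT1i against IFNγ + LPS. Here 3 members were lower with DGAT1i without overlap, 0 were higher, and 3 overlapped, beside 21.6% of all genes lower without overlap and 29.8% past the test in either direction, from which again nothing is read. The members' median log2 fold change was −0.34, beside −0.01 over all genes. Ms4a6b was at 210, 196 and 205 CPM with DGAT1i against 347, 326 and 339, a mean 1.66-fold lower (log2 fold change −0.73, SE 0.06). Ms4a4c was at 241, 263 and 241 CPM against 373, 416 and 421, a mean 1.62-fold lower (−0.70, SE 0.07). Ms4a6c was at 379, 358 and 348 CPM against 583, 567 and 523, a mean 1.54-fold lower (−0.62, SE 0.06). All 3 stayed far above their M0 level in each activated library.

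The other members overlapped in this contrast. Ms4a6d was at 971, 892 and 845 CPM with DGAT1i against 950, 949 and 902 (log2 fold change −0.05, SE 0.05), and Ms4a7 at 265, 237 and 230 against 273, 240 and 235 (−0.03, SE 0.06). In both genes, the libraries of the groups interleaved. Ms4a4a had 19, 42 and 19 reads with DGAT1i against 23, 26 and 29 without (0.20, SE 0.30), and replicate 2 alone stood above the rest. Without it the Ms4a4a value was −0.27. Beside these values, the neutrophil markers summed to 64.3 to 82.4 CPM in IFNγ + LPS with DGAT1i against 16.8 to 27.3 in IFNγ + LPS, again with Ly6g and Retnlg at 0 reads, and the dendritic cell markers to 1.04 to 1.40 against 5.62 to 7.16 CPM. Most neutrophil marker reads came from S100a8 and S100a9, with 484 and 356 against 143 and 123. Ngp had 127 against 22, Ltf 59 against 15, Camp 10 against 9 and Mmp8 22 against 36. Most dendritic cell marker reads came from Xcr1, with 12 against 86. Of the 7 macrophage markers 1 rose, 3 fell and 3 did not pass. Their part was not tested here either.

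**Figure D2:**
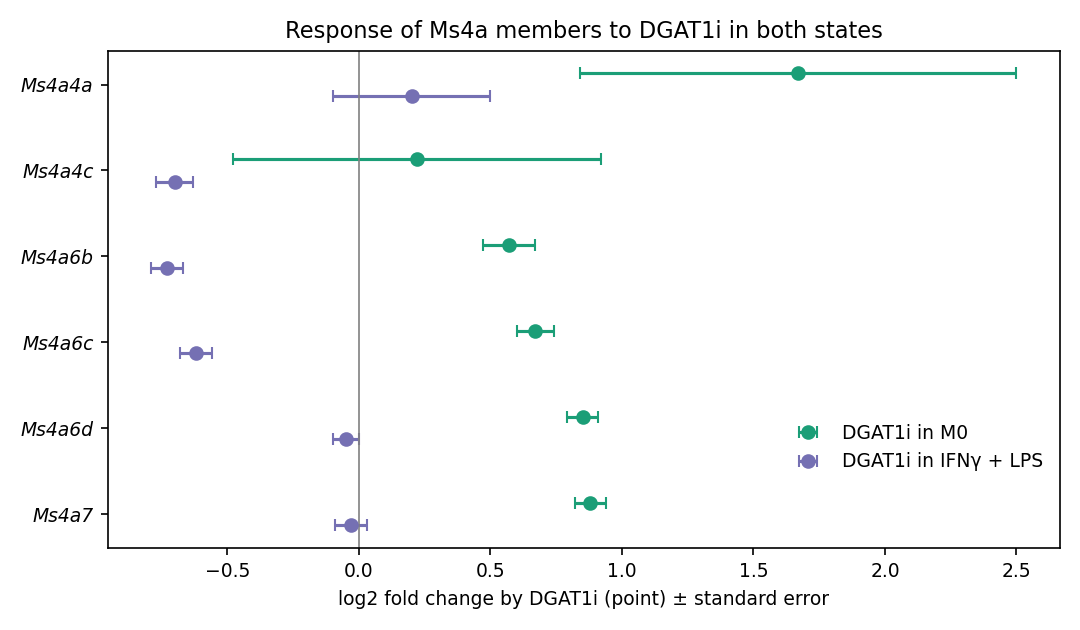
Log2 fold change with DGAT1i for each member, with points for the edgeR estimate and bars for its standard error, in M0 (green) and in IFNγ + LPS (purple). Ms4a6b and Ms4a6c lay on opposite sides of 0, at 0.57 and 0.67 in M0 and at −0.73 and −0.62 in IFNγ + LPS, whereas Ms4a6d and Ms4a7 departed from 0 in M0 and lay near it in IFNγ + LPS, at −0.05 and −0.03.

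Set side by side, the members fell into different patterns. Ms4a6b and Ms4a6c were higher in M0 and lower in IFNγ + LPS with DGAT1i, each without overlap, as were 337 genes in all, or 2.87% of those tested. Ms4a6d and Ms4a7 were higher in M0 without overlap and overlapped in IFNγ + LPS. Ms4a4c was lower in IFNγ + LPS without overlap, with too few reads in M0 to place a response there, and Ms4a4a overlapped in both states. The difference between the responses, in IFNγ + LPS minus in M0, was −1.29 (SE 0.11) for Ms4a6b, −1.29 (SE 0.09) for Ms4a6c, −0.90 (SE 0.08) for Ms4a6d, −0.91 (SE 0.09) for Ms4a7, −0.92 (SE 0.73) for Ms4a4c and −1.47 (SE 0.88) for Ms4a4a on the log2 scale. Their median was −1.10, beside −0.01 over all genes, of which 18.5% passed the test of this difference. For Ms4a4c and Ms4a4a the standard error was too wide to place the value, owing to the few reads in M0.

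By the same arithmetic, the log2 fold change on activation was lower with DGAT1i than without it for Ms4a6b, Ms4a6c, Ms4a6d and Ms4a7. The Ms4a4a and Ms4a4c estimates were also lower, by the difference above, which their standard errors were too wide to place. IFNγ + LPS with DGAT1i against M0 with DGAT1i gave 1.94 (SE 0.06) for Ms4a6c, 2.62 (SE 0.08) for Ms4a6b, 2.28 (SE 0.06) for Ms4a6d, 3.14 (SE 0.42) for Ms4a4a and 8.79 (SE 0.18) for Ms4a4c. With 4, 6 and 2 reads in M0 with DGAT1i, Ms4a4c was again loosely fixed, beyond its standard error. Its value ran from 8.46 to 9.22 with each library left out in turn. Ms4a6b, Ms4a6c and Ms4a6d were higher without overlap, beside 36.1% of all genes. Ms4a4a and Ms4a4c did not overlap either, but passed the filter through the activated groups, which fixes their direction. Ms4a7 was lower without overlap in this contrast, at 265, 237 and 230 CPM against 441, 449 and 394 (log2 fold change −0.81, SE 0.06), beside 36.5% of all genes lower. Nothing is read from these shares either. The Ms4a6c mean was 9.38-fold higher on activation without DGAT1i and 3.83-fold higher with it.

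Levels were compared between genes as CPM per kilobase of coding-transcript exons. In M0, Ms4a7 stood first (135 ± 8.37), followed by Ms4a6d (67.3 ± 3.79), Ms4a6c (32.3 ± 2.36) and Ms4a6b (8.37 ± 1.52), with no overlap between neighbours, and Ms4a4c and Ms4a4a overlapped below 1 (SD, n = 3). M0 with DGAT1i kept these first 4 in order, at 247, 121, 51.3 and 12.4 CPM per kilobase. With IFNγ + LPS the order changed to Ms4a6d (608 ± 17.9), Ms4a6c (303 ± 16.7), Ms4a4c (230 ± 15.1), Ms4a7 (144, from 136 to 158), Ms4a6b (126 ± 3.81) and Ms4a4a (5.96 ± 0.473), again without overlap between neighbours. With both treatments, Ms4a6d (588 ± 41.4) and Ms4a6c (197 ± 8.65) led, and Ms4a4c (142 ± 7.16) overlapped Ms4a7 (141 ± 10.6).

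Ms4a7 took the largest share of the family total in both M0 groups and Ms4a6d in both activated groups. The 6 members summed to 419 ± 27.3 CPM in M0, 743 ± 41.7 in M0 with DGAT1i, 2487 ± 54.2 in IFNγ + LPS and 1966 ± 97.9 in IFNγ + LPS with DGAT1i (SD, n = 3). Ms4a7 supplied on average 55.6% of the summed counts in M0, 57.6% in M0 with DGAT1i, 10.0% in IFNγ + LPS and 12.4% with both. Ms4a6d supplied 24.7%, 25.1%, 37.5% and 45.9% in the same order, and Ms4a4c 0.113%, 0.0726%, 16.2% and 12.7%.

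**Figure D3:**
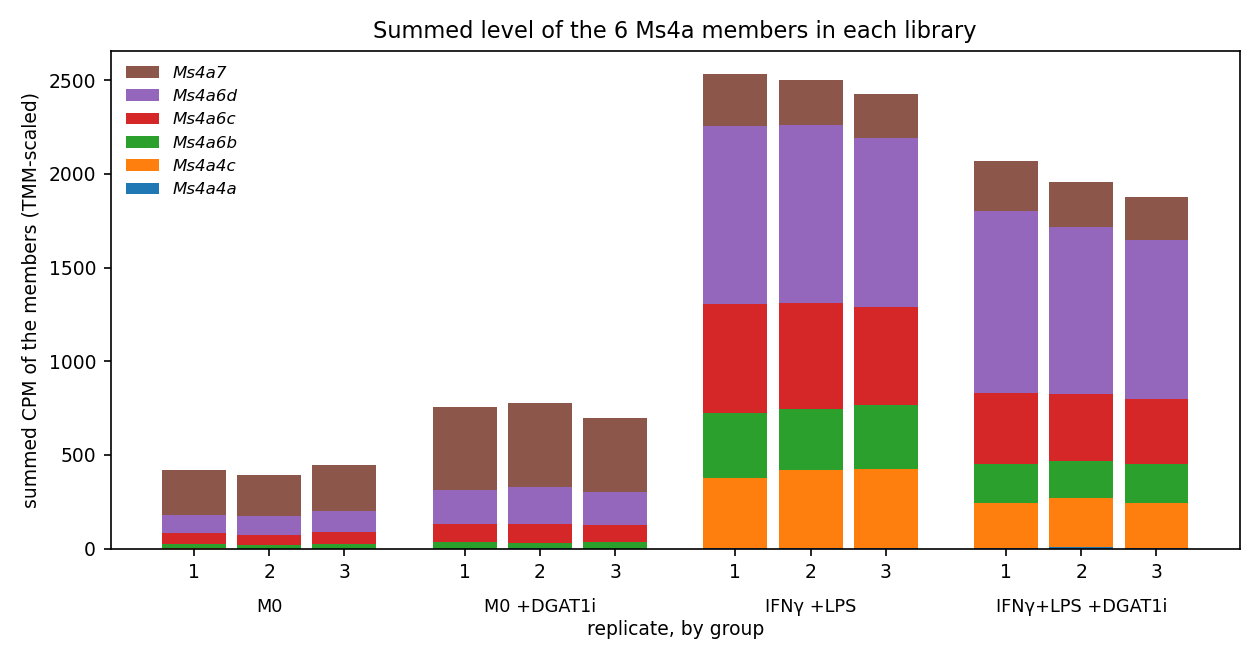
Summed TMM-scaled CPM of the 6 members in each library, stacked by gene on a linear axis from 0, with replicates 1 to 3 in each of the 4 groups. Ms4a7 made up more of the bar than the other members together in both M0 groups, and Ms4a6d was the widest band in both IFNγ + LPS groups.

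Across the 12 libraries, log2 CPM of Ms4a4a, Ms4a4c, Ms4a6b, Ms4a6c and Ms4a6d correlated with each other at Pearson's r of 0.93 to 0.99, and with Ms4a7 at −0.29 to −0.45. The libraries form 4 groups, so these values restate the differences between groups and carry no p. Among the genes outside the family most like Ms4a6c by Pearson's r, of 10150 with sufficient level, were Prkcd (0.995), a protein kinase C isoform, Nab1 (0.995), a corepressor of EGR factors, Itgal (0.995), the alpha chain of the integrin LFA-1, and Kif3b (0.994), a kinesin motor. Itgal, at mean CPM of 7.67 in M0, 15.8 in M0 with DGAT1i, 299 in IFNγ + LPS and 189 with both, had the pattern of Ms4a6c with wider folds. By Spearman's rho, 0 of the first 5 by Pearson's r remained among the first 5.

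Other genes of the family were few in these cells. Of 13 further Ms4a genes and the related Tmem176a and Tmem176b, 10 had reads and 3 passed the filter. Ms4a14, next to Ms4a7 in the cluster, was at 11.3, 8.12 and 12.1 CPM in M0, 16.1, 17.2 and 14.5 under DGAT1i alone, 22.5, 23.2 and 27.0 in IFNγ + LPS, and 19.3, 21.5 and 23.8 with both. It rose on activation (log2 fold change 1.21, SE 0.14, adjusted p = 1.42e-11) and with DGAT1i in M0 (0.60, SE 0.14, adjusted p = 6.22e-04), whereas its value with DGAT1i in IFNγ + LPS was −0.18 (SE 0.13, adjusted p = 0.327). The difference between its DGAT1i responses passed the test (−0.78, SE 0.19, adjusted p = 0.00186).

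Tmem176b, which encodes a cation channel of endosomal membranes related to the Ms4a proteins, was at 10.2 ± 2.14 CPM in M0 and 0.996 ± 0.862 in IFNγ + LPS (log2 fold change −3.29, SE 0.33). It and Tmem176a passed the filter through the resting groups, so this contrast is given with no test. Tmem176b fell with DGAT1i in M0, to 3.28 ± 1.05 CPM (−1.63, SE 0.23, adjusted p = 1.31e-07), the opposite direction to 4 of the members. Tmem176a, which shares 81 exon bases with Tmem176b on the opposite strand, reached the filter's level mainly in M0 itself and had −1.57 with DGAT1i in M0 (SE 0.41) and −0.73 on activation (SE 0.40), both with no test. Ms4a8a had 7 reads in IFNγ + LPS and 5 with both treatments, and 0 in both M0 groups. Ms4a3, a gene of granulocyte and monocyte progenitors, had 4 reads in M0 and 0 elsewhere. Ms4a4b, known from T cells, had 2 reads in M0, 2 when DGAT1i was added, 10 in IFNγ + LPS and 4 with both, some of which could come from Ms4a4c, 82.8% identical to it. Ms4a1 had 3 reads in all, Ms4a2 had 2, Ms4a4d 2 and Ms4a12 1, and Ms4a5, Ms4a10, Ms4a13, Ms4a15 and Ms4a18 had 0.

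Of 6 genes known to act with Ms4a proteins, 5 were tested, and on activation 3 rose and 2 fell, beside 37.1% and 36.2% of all genes. Clec7a, which encodes Dectin-1, rose from 85.1 ± 10.6 to 176 ± 8.17 CPM on activation (log2 fold change 1.05, adjusted p = 3.67e-13) and fell with DGAT1i in resting (−0.53, adjusted p = 1.39e-05) and activated macrophages (−0.54, adjusted p = 3.08e-06). The difference between its responses to DGAT1i was −0.01 (SE 0.12, adjusted p = 0.964). Syk, the kinase downstream of Dectin-1, rose on activation from 284 ± 2.46 to 730 ± 25.7 CPM (1.36, adjusted p = 3.07e-31) and with DGAT1i in M0 (0.23, adjusted p = 4.44e-04). With DGAT1i in IFNγ + LPS it had −0.10 (adjusted p = 0.118), and the difference passed the test (−0.33, SE 0.07, adjusted p = 4.52e-04).

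Trem2, a lipid-sensing receptor, fell on activation from 801 ± 27.4 to 122 ± 2.56 CPM (log2 fold change −2.71, adjusted p = 7.49e-44), and with DGAT1i in IFNγ + LPS it rose to 197 ± 12.7 CPM (0.69, adjusted p = 4.08e-14), whereas in M0 it had −0.08 (adjusted p = 0.225). The difference was 0.77 (SE 0.08, adjusted p = 2.71e-11). Its adaptor Tyrobp fell on activation (−0.58, adjusted p = 3.65e-11) and had 0.07 with DGAT1i in the resting and 0.06 in the activated state (adjusted p = 0.424 and 0.478). Nlrp3, the inflammasome sensor, rose on activation (1.02, adjusted p = 2.24e-18) and fell with DGAT1i in both states (−0.33 and −0.54, adjusted p = 8.81e-04 and 5.94e-08). Vsig4, a receptor of tissue macrophages, had 5 reads in M0, 7 in M0 with DGAT1i and 0 in the activated groups, and was not tested.

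Human MS4A4A is known as a marker of alternatively activated macrophages, and the list of such genes was read beside the members. Of 13 genes 8 were tested, 4 of which passed the filter in both resting and activated libraries, and these 4 fell on activation, beside 36.2% of all genes. The others passed through the resting libraries alone (Cd163, Clec10a and Irf4) or the activated ones alone (Pdcd1lg2), which fixes their direction. The median log2 fold change of the 8, which includes these genes of fixed direction, was −3.21. Mrc1, the mannose receptor, went from 1499 ± 167 to 37.7 ± 2.49 CPM (log2 fold change −5.31, adjusted p = 6.78e-19), and Egr2, a transcription factor, had −4.24 (adjusted p = 5.60e-26). Cd163, the haemoglobin scavenger receptor, had 82 reads in M0 and 1 in IFNγ + LPS. Pdcd1lg2, which encodes the ligand PD-L2, had 0 and 64 reads.

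Of 15 interferon-stimulated genes, 12 passed the filter in both states, and all 12 rose on activation, beside 37.1% of all genes. Cxcl9, Cxcl10 and Socs1 passed through the activated libraries alone. The median log2 fold change of the 15, which includes these 3 genes of fixed direction, was 8.29. With DGAT1i in IFNγ + LPS, 9 fell and 2 rose (median −0.34), beside 16.3% of all genes that fell and 13.5% that rose. With DGAT1i in M0, 3 fell and 0 rose (median −0.12), beside 13.4% and 11.0% of all genes. These 15 include Cxcl9, Cxcl10 and Socs1, with 0, 12 and 12 reads in M0 and 0, 9 and 20 with DGAT1i. Such counts are too few to place a response. Cxcl10, a T cell chemokine, went from 2342 ± 52.9 to 1286 ± 18.9 CPM with DGAT1i in IFNγ + LPS (log2 fold change −0.86, adjusted p = 3.72e-20), and Gbp2, a guanylate-binding protein, had −0.35 (adjusted p = 8.60e-06). Socs1, a feedback inhibitor of cytokine signalling, had −0.03 (adjusted p = 0.743). Cxcl9, with 0 reads in both M0 groups, had −0.51 (adjusted p = 2.61e-11). Ms4a4c had −0.70 in this contrast, with no test.

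Around and inside the cluster, 33 genes that are not Ms4a genes lay within 1 Mb and were tested, and 14 rose and 13 fell on activation. Of the 26 that passed the filter in both states, 10 rose and 11 fell, near the shares over all genes. AW112010, BE692007, Gm8369 and Gm38275 passed through the activated libraries alone, and Fads2, Fads3 and Myrf through the resting ones, so these are given with no test. The genes with the largest changes were AW112010, an interferon-induced transcript (log2 fold change 9.80), Fads2, a fatty acid desaturase (−6.10), Rab3il1, a Rab exchange factor (−4.49, adjusted p = 1.20e-40), and Tmem132a (−3.55, adjusted p = 9.63e-21). Inside the cluster, Gm8369, between Ms4a6c and Ms4a6b and 76.2% identical to Ms4a4c over 952 bases, had 2.69 on activation (SE 0.35). It had 0.78 with DGAT1i in M0 (adjusted p = 0.215) and −0.43 in IFNγ + LPS (adjusted p = 0.268). The antisense BE692007 had 3.31 (SE 0.48), beside 3.23 for Ms4a6c. With DGAT1i, 3 of the 33 genes rose and 3 fell in M0, and 5 rose and 4 fell in IFNγ + LPS, near or below the 24.4% and 29.8% of all genes that changed in either direction.

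**Figure D4:**
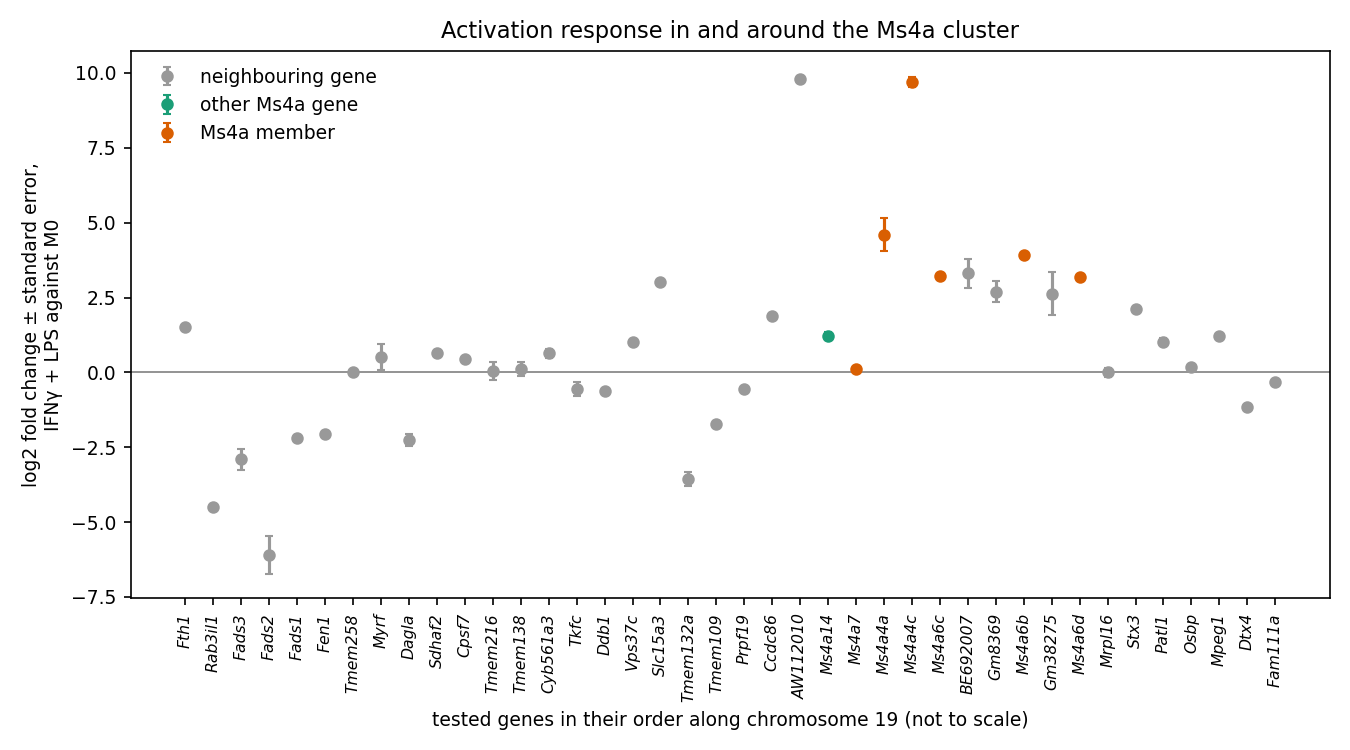
Log2 fold change of IFNγ + LPS against M0, with its standard error, for the 40 tested genes in and within 1 Mb of the Ms4a cluster, ordered along chromosome 19 and not to scale. From Ms4a4a to Ms4a6d the 8 genes lay at 2.63 to 9.70, 5 of which (Ms4a4a, Ms4a4c, BE692007, Gm8369 and Gm38275) passed the filter only through the activated groups, which fixes their direction.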

How the data were processed

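The authors deposited 1 table of raw counts, whole reads per Ensembl gene (GRCm38 and DESeq2 per the submitters' processing notes), for 12 libraries. The study's methods cite the snakePipes pipeline. The aligner, counter, annotation release and strand setting were not given in the sources used here. The methods name a TruSeq stranded mRNA kit, and the labels name a different kit. Symbols came from GENCODE M21 for 47310 of 47937 identifiers, matched without version. Columns were mapped to groups by name.

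The counts were fitted with edgeR 4.0.16 (R 4.3.3) after filterByExpr and TMM scaling, with 1 mean per group over all 12 libraries, the robust quasi-likelihood test and Benjamini-Hochberg adjustment over 11760 genes, tested first on simulated data. Standard errors were log2 fold change over the root of F. No overlap means that all 3 libraries of a group lay above all 3 of the other in CPM. 1 CPM was worth 4.28 to 7.58 reads, which limits low genes. Libraries of a group differed by more than sampling noise. Alternatives were DESeq2 1.42.0, other scalings, filters and thresholds, only the libraries compared, the replicate block, and leaving out each library. Transcripts were aligned with BLAST 2.17.0.

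Members and gene lists were chosen with earlier results of these data known. Genes named were the members, all family and partner genes with reads, up to 4 genes per other list with the largest activation change, and the 5 most like Ms4a6c at an average log2 CPM of 2 or more; BE692007 and Gm8369 were added after their values were seen. Of the 5 most like Ms4a6c, 1 is not reported here.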

Additional observations from a re-analysis of the deposited data

Results flagged for a closer look

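The DGAT1i responses of Ms4a6b and Ms4a6c lay in opposite directions in M0 and in IFNγ + LPS without overlap of the libraries in either state, with differences of −1.29 for each, and this difference was not tested because the family was selected on it. By the edgeR test of the difference itself, the response to DGAT1i also differed between the states for Ms4a14 (−0.78), Syk (−0.33) and Trem2 (0.77).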

How the results depend on the processing

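Of 868 values under alternatives, 857 kept their direction and their side of the threshold, or moved by less than the spread. A change of sign within the spread counted as kept. The looser threshold kept the fold changes of the main fit, and leaving out a library outside a comparison hardly moved them. Many of the 868 values could therefore not change. Library-size scaling reversed Ms4a7 on activation (−0.37 against 0.10), which raised the members past the threshold from 5 to 6, 1 of them lower (Ms4a4a and Ms4a4c, whose direction the filter fixes, included). Under the same scaling, activation in the presence of DGAT1i had a members' median of 2.03 (2.45 before), with 1.52 for Ms4a6c, 2.20 for Ms4a6b, 1.86 for Ms4a6d and −1.23 for Ms4a7, and the calls over all genes were 25.0% higher on activation (50.6% before), 25.5% with DGAT1i (50.0%), 29.7% for DGAT1i in M0 (45.2%) and 58.2% for the difference (46.9%), with medians of all genes of −0.46 and −0.43 in the activation contrasts, which the total-count scaling itself sets. It also raised the alternative activation genes called with DGAT1i in M0 to 5 from 3. With no filter on low counts, 4 other family genes were called on activation (2 before), since more genes were tested. The 2 include Tmem176b, which passed the filter through the resting groups, which fixes its direction. Leaving out each library in turn, Ms4a6c ranged from 0.61 to 0.72 with DGAT1i in M0, −0.67 to −0.60 in IFNγ + LPS and −1.35 to −1.24 in the difference. Ms4a4c ranged from −0.38 to 1.84 and from −2.55 to −0.32 in the difference, with 1.84 and −2.55 without M0 replicate 1; its activation ranged from 9.11 to 11.33. Ms4a4a ranged from 0.77 to 2.14 with DGAT1i in M0, −1.94 to −0.57 in the difference and 2.66 to 4.03 in activation under DGAT1i, with 0.77, −0.57 and 4.03 without replicate 2 of M0 with DGAT1i, and from −0.27 to 0.42 in IFNγ + LPS. Under the DESeq2 fit, 1486 genes passed the test of the difference against 2171.

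Replicate numbers are shared by the groups and gave at most a weak sign of pairing. Of 18 same-numbered pairs, 0 had a correlation over 0.1. They ran from −0.022 to 0.069, beside −0.058 to 0.038 for other pairs. Between IFNγ + LPS with and without DGAT1i, same-numbered pairs had 0.069, 0.039 and 0.036, and other pairs at most 0.020. With the replicate block, 5 members were past the threshold on activation, as without it (Ms4a4a and Ms4a4c again included), the members' median with DGAT1i was 0.76 in M0 and −0.34 in IFNγ + LPS, and calls over all genes on activation were 8635 against 8615. Depth limits Ms4a4a and Ms4a4c in both M0 groups, where no library had more than 9 reads.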
